A study of Mus musculus with 12 samples.

Results

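The Id genes (inhibitor of DNA binding) are a family of 4 genes, Id1, Id2, Id3 and Id4, and were followed here in mouse embryonic stem (ES) cells after a brief exposure to hydrogen peroxide (H2O2). All probe sets that the array's annotation assigns to one of these genes alone were taken, which gave 4 probe sets, 1 for each gene, among 12422 probe sets outside the array's controls. These probe sets stand for 4 of 8251 genes with a symbol, and all 4 were among the 8695 probe sets bright enough to be tested. The family was chosen by name, with the changes of gene expression after peroxide on these same arrays already known. The signals of its members and their differences between groups are therefore given as a description, without p-values.

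The proteins of this family have a helix-loop-helix dimerization domain but no basic region to contact DNA. They bind the widely expressed E proteins and so keep those from pairing with tissue-specific basic helix-loop-helix (bHLH) factors on DNA. Id1, Id2 and Id3 are well-known direct targets of bone morphogenetic protein (BMP) signalling, in which receptor-activated Smad proteins enter the nucleus with Smad4. In mouse ES cells BMP4 together with leukaemia inhibitory factor sustains self-renewal, and induction of Id genes is a known part of that effect.

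RNA was measured on 12 Affymetrix MG_U74Av2 arrays. There were 3 arrays of control cells in phosphate-buffered saline (PBS), 4 of cells that received 100 µM H2O2 for 15 min (low dose) and 5 of cells that received 5 mM for 30 min (high dose). The protocol gives 1 h of recovery in growth medium after treatment, before extraction. All groups were the same single clone, C2, of the E14tg2a ES cell line, which carries 2 targeted sites for the endonuclease I-SceI. The low and the high dose differ in exposure time as well as in concentration, and the time the controls spent in PBS is not given in the sources used here. The labels do not say whether replicates were separate cultures, so the spread between arrays may be technical.

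Values are MAS5 signals, intensities on a linear scale, and changes are differences of log2(signal + 10.1), a scale that understates the change of dim probe sets. The arrays correlated at r = 0.967 to 0.981 within groups (19 pairs) and at r = 0.945 to 0.969 between groups (47 pairs). These coefficients are across probe sets, which do not count as replicates. The highest value of each array, taken over all probe sets with the controls, was 14976 to 34685 on the 9 peroxide arrays. On the PBS arrays it was 7206 to 8904, whereas the Id values lay between 43.1 and 899. The probe set with the highest value need not be the same on each array. All 12 pluripotency markers of the labelled cell type passed the filter on low values. Of 14 primitive endoderm markers, genes of an extraembryonic lineage that can arise in ES cultures, all passed as well. Of 15 fibroblast (feeder) markers 14 had a probe set with their symbol alone, all but Fbn1, and 9 of these passed.

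The start regions of the family members are shown as sequence only, and their part in the Id changes was not tested. RefSeq promoter windows (build GRCm38.p6), each from 250 bases before to 50 bases after the annotated start, were found for 3 of the 4 genes, Id2, Id3 and Id4. Capitals mark GGCGCC, a GC-rich element to which BMP-activated Smads can bind, and CCAAT on either strand, written ATTGG where it lies on the opposite strand. Each is written 5′ to 3′ on the strand of its gene.
Id2 (chr12:25096043-25096342, minus strand): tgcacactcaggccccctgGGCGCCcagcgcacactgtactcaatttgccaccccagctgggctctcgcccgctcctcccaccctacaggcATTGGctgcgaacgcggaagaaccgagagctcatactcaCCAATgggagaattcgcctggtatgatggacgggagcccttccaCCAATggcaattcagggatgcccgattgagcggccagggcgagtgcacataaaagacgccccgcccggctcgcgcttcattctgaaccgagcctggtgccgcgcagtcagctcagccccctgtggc
Id3 (chr4:136143572-136143871, plus strand): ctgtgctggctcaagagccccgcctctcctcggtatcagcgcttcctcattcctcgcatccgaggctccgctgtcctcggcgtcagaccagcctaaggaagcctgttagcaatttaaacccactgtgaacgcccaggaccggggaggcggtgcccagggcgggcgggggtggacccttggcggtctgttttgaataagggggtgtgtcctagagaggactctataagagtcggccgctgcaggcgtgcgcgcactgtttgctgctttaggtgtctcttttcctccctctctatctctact
Id4 (chr13:48260866-48261165, plus strand): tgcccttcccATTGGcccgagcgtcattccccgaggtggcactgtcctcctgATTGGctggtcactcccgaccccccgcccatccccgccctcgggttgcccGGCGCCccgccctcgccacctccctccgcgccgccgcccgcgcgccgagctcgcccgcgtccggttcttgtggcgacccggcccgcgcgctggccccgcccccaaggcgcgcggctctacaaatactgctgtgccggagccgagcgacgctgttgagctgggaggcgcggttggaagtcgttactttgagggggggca

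The windows of Id2 and Id4 held GGCGCC at 1 place each, 231 and 148 bases before the start, and that of Id3 held none. This motif occurs in 11.9% of 32851 annotated windows of the same length. CCAAT, counted on both strands, occurred at 3 places in the window of Id2, at 2 in that of Id4 and at none in that of Id3, and is found in 37.4% of all windows. GTCT, the short core that Smads recognise, was found on either strand at 1 place for Id2 and 3 places for Id3 and is present in 88% of all windows. TGACG, part of the cyclic AMP response element, was found once each for Id3 and Id4 (20.8% of all windows), and TATAA once for Id3 (24.9%). Among these matches the only overlap was of GTCT and TGACG in the window of Id3, which shared a base. The matches are letters in these windows and were not set against binding data. Sequence outside the windows was not searched, and Id1 had no window to search.

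After the low dose the family members went different ways. Id4 was 4.10-fold and Id2 2.95-fold higher than in PBS, Id1 was 2.73-fold lower, and Id3 stood at its PBS level. After the high dose the differences of Id1, Id2 and Id4 from PBS were smaller than after the low dose, with Id1 1.65-fold lower, while that of Id3 was larger (1.23-fold). The high-dose arrays of Id2, Id3 and Id4 overlapped those of PBS. Between the doses, Id1 therefore read higher, and Id2 and Id4 lower, at 5 mM than at 100 µM.

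Id1, the member most studied as a BMP target, read 899, 651 and 751 on the PBS arrays, 269, 262, 232 and 337 at 100 µM, and 425, 342, 540, 467 and 538 at 5 mM. The 3 groups did not overlap, with PBS highest, 5 mM between and 100 µM lowest. Between the doses the margin was narrow, at 342 against 337 for the nearest arrays. The share of all probe sets whose groups do not overlap is not given here. Nothing is therefore read from a lack of overlap, for Id1 or for the genes below. The means were 767 ± 125 (SD, n = 3) in PBS, 275 ± 44.2 (n = 4) at 100 µM and 462 ± 82.9 (n = 5) at the high dose. The log2 change against PBS was -1.45 ± 0.17 (SE) at 100 µM and -0.72 ± 0.17 at 5 mM.

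Id2, a member that in other cell types also binds the retinoblastoma protein, read 267, 155 and 124 on the PBS arrays, 653, 404, 544 and 549 at 100 µM, and 223, 168, 248, 323 and 314 at 5 mM. All low-dose arrays lay above all others, while the 5 mM and PBS arrays overlapped. The means were 182 ± 75.1 (SD, n = 3) in PBS, 538 ± 102 (n = 4) at 100 µM and 255 ± 65.0 (n = 5) at the high dose. The log2 change against PBS was 1.56 ± 0.25 (SE) at 100 µM and 0.50 ± 0.24 at 5 mM, the second being 0.80 without PBS replicate 1, which was the highest of the PBS arrays.

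Id3, a BMP target in many cell types like Id1, read 195, 103 and 134 on the PBS arrays, 142, 137, 156 and 137 at 100 µM, and 164, 158, 225, 162 and 167 at 5 mM. The PBS arrays spanned the range of the low-dose arrays, and 4 of the 5 high-dose arrays lay within the PBS range. The means were 144 ± 47.0 (SD, n = 3) in PBS, 143 ± 8.89 (n = 4) at 100 µM and 175 ± 28.2 (n = 5) at the high dose. The log2 change against PBS was 0.03 ± 0.20 (SE) at 100 µM, with either sign among the alternatives (-0.17 to 0.26 when arrays were left out in turn), and 0.30 ± 0.19 at 5 mM. All 5 high-dose arrays lay above the 4 low-dose arrays, by a narrow margin of 158 against 156 between the nearest arrays, and the change of high over low dose was 0.27 ± 0.17.

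Id4, in the mouse known mainly for its role in neural stem cells and spermatogonia, read 43.1, 65.2 and 71.8 on the PBS arrays, 311, 213, 286 and 292 at 100 µM, and 50.1, 69.8, 57.2, 67.1 and 103 at 5 mM. The lowest low-dose array stood above the highest array of either other group by more than the range of those groups. The means were 60.0 ± 15.0 (SD, n = 3) in PBS, 276 ± 43.1 (n = 4) at 100 µM and 69.5 ± 20.5 (n = 5) at the high dose. The log2 change against PBS was 2.04 ± 0.23 (SE) at 100 µM and 0.17 ± 0.22 at 5 mM, the second ranging from -0.02 to 0.30 when arrays were left out in turn.

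**Figure D1:**
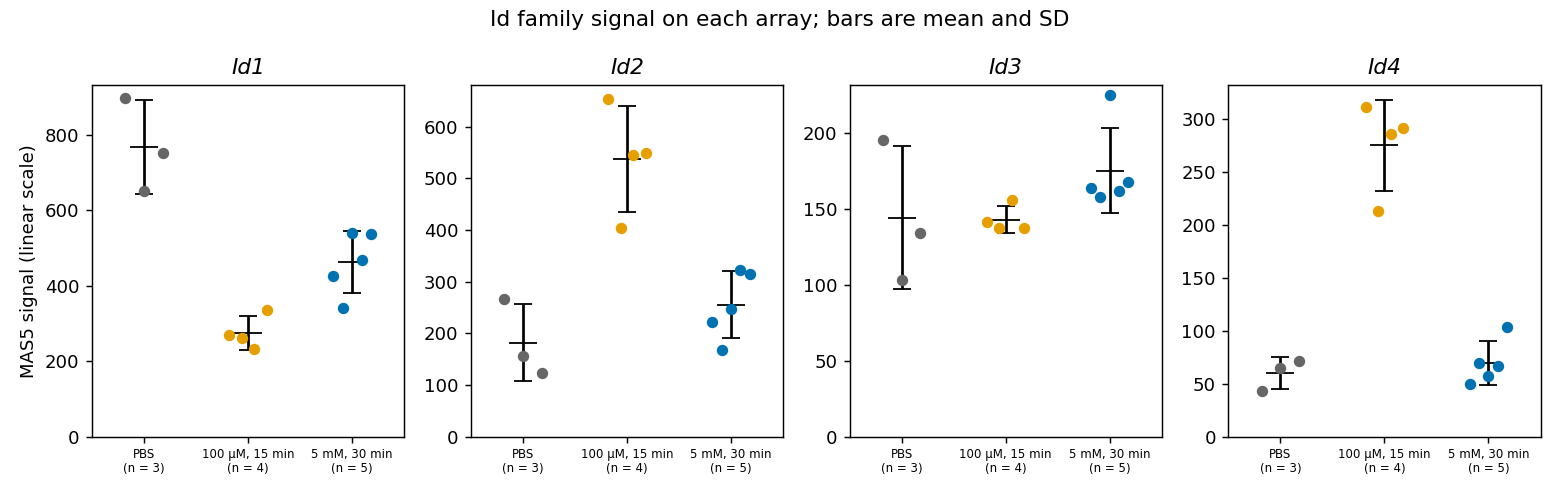
MAS5 signal (linear scale, each panel with its own range) of Id1, Id2, Id3 and Id4 on every array, for PBS (n = 3), 100 µM H2O2 (n = 4) and 5 mM H2O2 (n = 5), with bars for mean and SD. Id2 and Id4 stand highest at 100 µM (538 and 276 on average), Id1 stands lowest there (275), and the groups of Id3 lie close together (144, 143 and 175).

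The change of high over low dose was 0.72 ± 0.15 (SE) for Id1, -1.06 ± 0.22 for Id2 and -1.86 ± 0.20 for Id4. Set among all 8695 probe sets, 0.23% had a larger absolute change than Id4 at the low dose against PBS, 1.09% a larger one than Id2, 1.63% a larger one than Id1 and 94.9% a larger one than Id3. At the high dose against PBS the corresponding shares were 9.84% for Id1, 22.3% for Id2, 44.4% for Id3 and 65.4% for Id4. For high over low dose they were 0.828% for Id4, 5.26% for Id2, 15.0% for Id1 and 56.5% for Id3. The comparisons with PBS share the same 3 PBS arrays.

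Against PBS at the low dose, 2 of the 4 Id probe sets were past the threshold (adjusted p under 0.05 over all 8695) and higher, Id2 and Id4, beside 12.8% of all probe sets, and 1 was past it and lower, Id1, beside 11.2%. Against PBS at the high dose, 1 was past it and lower, Id1, beside 6.03% of all probe sets, and none was higher, beside 5.68%; without PBS replicate 1, Id2 was past it as well. At the high over the low dose, 1 was higher, Id1, beside 12.8%, and 2 were lower, Id2 and Id4, beside 14.6%. As the family was chosen with these results known, nothing is read from these counts. The members past the threshold were the same under every alternative for the low dose against PBS and for high over low dose.

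The spread within groups also differed between the members. The coefficient of variation of Id1 was alike in the groups, at 16.3% in PBS, 16.1% at 100 µM and 17.9% at 5 mM. That of Id2 was 41.3%, 19.0% and 25.5% in the same order, that of Id3 32.6%, 6.22% and 16.1%, and that of Id4 lay between 15.6% at 100 µM and 29.5% at 5 mM. The PBS value of each rests on 3 arrays.

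The changes of Id1, Id2 and Id4 at the low dose kept their direction when arrays were left out in turn. Id1 ranged between -1.56 and -1.33, Id2 between 1.34 and 1.86 and Id4 between 1.85 and 2.16. At the high dose against PBS, Id1 ranged between -0.83 and -0.61, Id2 between 0.27 and 0.80 and Id3 between 0.10 and 0.53. For high over low dose, Id1 ranged between 0.65 and 0.82, Id2 between -1.19 and -0.93, and Id3 between 0.18 and 0.31, while Id4 was at -1.77 or below.

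**Figure D2:**
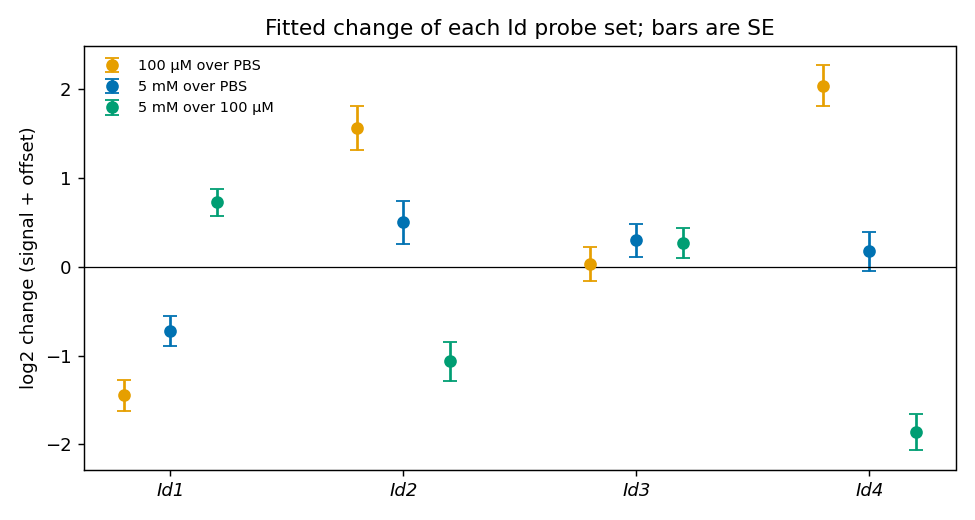
Log2 change (signal + offset) of each Id probe set from the model over all 12 arrays, for 100 µM over PBS, 5 mM over PBS and 5 mM over 100 µM, with bars for SE. Id2 and Id4 lie above 0 at 100 µM over PBS (1.56 and 2.04) and below 0 at 5 mM over 100 µM (-1.06 and -1.86), Id1 shows the opposite signs (-1.45 and 0.72), and Id3 stays within 0.30 of 0.

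The PBS arrays differed among themselves in these genes. PBS replicate 1 had the highest reading of Id1, Id2 and Id3 within its group and the lowest of Id4. The summed signal of the 14 primitive endoderm markers was also highest on that array, at 11484 against 7253 and 7495 on the other PBS arrays, and the Actb controls, whose 3′ to 5′ ratio grows as RNA degrades, gave a ratio of 1.99 there against 0.871 and 0.921. On the peroxide arrays this ratio was 1.05 to 1.49. The part of these differences in the Id values was not tested.

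Markers of other cells moved with the doses too. The summed primitive endoderm signal was 7253 to 11484 on the PBS arrays, 10531 to 11657 on the low-dose arrays and 1677 to 1857 on the high-dose arrays. Of the 14 markers, 6 rose and 8 did not pass at the low dose, and 11 fell and 3 did not pass at the high dose, beside 24.6% and 12.2% of all 6414 genes tested in those comparisons. Dab2, an endocytic adaptor gene of this lineage, averaged 577 ± 67.4 (SD, n = 3) in PBS, 1088 ± 91.6 (n = 4) at 100 µM and 28.6 ± 13.5 (n = 5) at 5 mM, with log2 changes against PBS of 0.91 (adjusted p = 0.0148) and -4.00 (adjusted p = 2.42e-08). The endoderm transcription factor gene Gata6 averaged 182 ± 36.2 in PBS, 635 ± 90.7 at 100 µM and 23.6 ± 10.1 at 5 mM (1.76, adjusted p = 2.45e-04, and -2.55, adjusted p = 4.70e-06), while dimmer probe sets of Gata6 did not pass against PBS at either dose. The low-dose call of Dab2 was lost with a floor in place of the offset (adjusted p = 0.0531). Its high-dose change ranged between -4.48 and -3.18, and that of Gata6 between -3.02 and -1.80, over the other settings, and a dimmer probe set of Dab2 did not pass there (-0.62). In these bulk samples fewer cells of a type and less RNA per cell cannot be told apart.

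The pluripotency markers had a summed signal of 29313 to 32379 in PBS, 36421 to 41441 at the low dose and 34157 to 39483 at the high dose. Bright genes weigh most in such a sum, among them Dppa5a, at 6071 in PBS and 9655 at 5 mM on average. The highest value of each array, controls included, was also lower on the PBS arrays (7206 to 8904) than on the peroxide arrays (14976 to 34685). The part of this difference in the sums was not tested. At the low dose 4 of the 12 rose and 1 fell, beside 24.6% of all genes. The largest change was that of Klf4 (1.49, adjusted p = 3.64e-06), which averaged 1201 in PBS, 3380 at 100 µM and 1029 at 5 mM. Utf1 was the marker that fell (-0.89, adjusted p = 0.00167). After 5 mM 2 rose and 1, Fgf4, fell (-0.58, adjusted p = 0.00407), beside 12.2%. The number past the threshold there was 1 with a common median or without PBS replicate 2 or PBS replicate 3, and 5 with array weights. One of those that rose, Dppa5a (0.66, adjusted p = 0.0210), was past the threshold in the other direction after quantile normalization (-0.45, adjusted p = 0.00527). The genes Pou5f1, Sox2 and Nanog, which encode core pluripotency factors, had log2 changes of 0.10 (adjusted p = 0.726), 0.61 (adjusted p = 0.00951) and 0.71 (adjusted p = 0.00107) at the low dose, the call of Sox2 being lost after scaling to a common median (0.124) and without PBS replicate 2 (0.0545). After 5 mM their changes were 0.47 (adjusted p = 0.0821; 0.0446 without 100 µM replicate 2), -0.23 (adjusted p = 0.349) and 0.51 (adjusted p = 0.0123). Quantile normalization gave -0.15 for Pou5f1, the opposite sign, and put Sox2 past the threshold (-0.46, adjusted p = 0.0121). The call of Nanog was lost under it (0.24, adjusted p = 0.159), with a common median (0.44, adjusted p = 0.104), and without PBS replicate 2 (0.0618) or PBS replicate 3 (0.0603). A dimmer probe set of Nanog did not pass against PBS at the low dose (0.58) or, with the opposite sign, at the high dose (-0.59). For high over low dose it was past the threshold (-1.17), while the brighter one was not (-0.19). The fibroblast markers summed to 1315 to 1541 in PBS, 1596 to 1941 at the low dose and 1346 to 1768 at the high dose. Of these markers, Col3a1, Dcn, Acta2, Lox and Postn did not pass the filter on low values, while Col1a1, Col1a2, Col6a1, Vim, Fn1, Thy1, S100a4, Timp3 and Tagln did. Fn1 and Col1a2 were the brightest in the sum, at mean signals of 708 and 471 over all arrays. Second probe sets of Col1a2 (5.11), Col1a1 (19.7) and Col6a1 (2.25) lay below the filter. Vim (25.5) and S100a4 (24.9) were close to the filter level of 19.1. The sum is therefore a weak measure of fibroblasts. At the low dose Fn1 rose (0.68, adjusted p = 0.00554) and Thy1 fell (-1.66, adjusted p = 9.53e-04), and 3 of the 9 were past the threshold for high over low dose (1 to 4 when arrays were left out in turn), beside 29% of all genes. Against PBS at 5 mM none (0) passed in limma, with p under 0.05 before adjustment for 2. The low-dose arrays, on which Id4 and Id2 stood highest, had primitive endoderm sums above those of PBS replicates 2 and 3 and around that of PBS replicate 1. The sums were lowest at the high dose, where Id4 was near its PBS level. The part of these markers in the Id values was not tested.

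**Figure D3:**
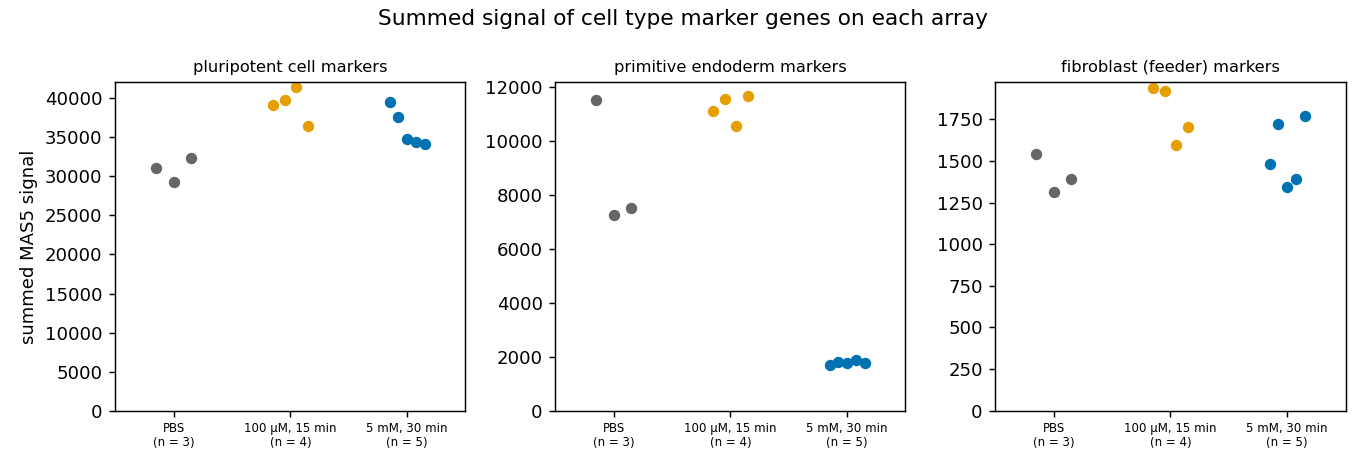
Summed MAS5 signal (linear scale, each panel with its own range) of pluripotency, primitive endoderm and fibroblast marker genes on every array, for PBS (n = 3), 100 µM (n = 4) and 5 mM H2O2 (n = 5). The primitive endoderm sum is 1677 to 1857 on the 5 mM arrays, below every other array. PBS replicate 1, at 11484, stands above the other PBS arrays and within the range of the 100 µM arrays.

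The BMP pathway was then read from its ligands to its targets, and the counts of its lists stand beside 24.6% of all genes past the threshold at the low dose, 12.2% at the high dose and 29% for high over low dose. Tested were 3 of 15 listed ligand genes, 6 of 8 receptor genes and 3 of 4 signal-carrying Smad genes. Of the inhibitor genes 9 of 18 were tested, and of the other targets 8 of 14. The rest lay below the filter or had no probe set with their symbol alone. At the low dose 1 of 3 tested ligand genes fell, Bmp4, and 2 did not pass, with a list median of -0.12 against 0.04 for all genes tested. Bmp4 read 252, 312, 294 and 292 at 100 µM, against 472, 474 and 510 in PBS. The groups did not overlap, and the log2 change was -0.74 ± 0.13 (SE, adjusted p = 0.00121). A second probe set of Bmp4 fell as well, by 0.98 on the log2 scale. After 5 mM Bmp4 averaged 514 ± 71.4 (SD, n = 5) and did not pass against PBS (0.07, adjusted p = 0.766), and it was higher at the high than at the low dose (0.81, adjusted p = 1.01e-04).

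The other tested ligand genes were Bmp6 and Gdf3, a gene of the same superfamily expressed in pluripotent cells. Against PBS, Bmp6 fell and Gdf3 rose at 5 mM (2 of 3 past the threshold, list median 0.07 against -0.01 for all genes). Bmp6 averaged 7.74 ± 2.89 (SD, n = 5) at the high dose and 41.9 ± 7.43 (n = 3) in PBS, a log2 change of -1.55 that the offset limits, since the high-dose mean lies below it. Gdf3 averaged 1194 ± 182 at the high dose and 782 ± 198 in PBS (0.62, adjusted p = 0.0167). Its call was lost after scaling to a common median (adjusted p = 0.0703), with the replicate block (0.0565), and without PBS replicate 2 (0.0831) or PBS replicate 3 (0.0964).

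The receptor genes, 6 of which were tested, had no member past the threshold at the low dose in limma (before adjustment, p was under 0.05 for 2) and a median of 0.14. The largest values were -0.85 for Bmpr2, the type II BMP receptor gene (adjusted p = 0.154; 0.0451 without 100 µM replicate 1), and 0.57 for the activin and BMP receptor gene Acvr2a (adjusted p = 0.0666; 0.045 without the variance trend). After 5 mM 1 of 6 fell, with a median of -0.19. It was Eng, which encodes the co-receptor endoglin, at 745 ± 170 (SD, n = 5) at the high dose and 1218 ± 168 (n = 3) in PBS (-0.72, adjusted p = 0.0121; 0.0568 without PBS replicate 2 and 0.0634 without PBS replicate 3). Eng and Acvr2a were lower at the high than at the low dose (-1.05, adjusted p = 1.18e-04, and -0.70, adjusted p = 0.012). A dimmer probe set of Acvr2a did not pass there (-0.48).

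The tested genes of the Smads that carry the BMP signal, Smad1, Smad5 and Smad4, did not pass in any of the 3 comparisons in limma. Smad9 had no probe set with its symbol alone, and Smad5 was dim, at a mean signal of 32.1 over all arrays. With no adjustment, p was under 0.05 for 0 of 3 at the low dose, for 1 at the high dose and for 1 in high over low dose. The largest values were -0.41 for Smad4 at the high dose (adjusted p = 0.165) and 0.08 for Smad5 at the low dose (adjusted p = 0.858). Smad1 averaged 310 ± 29.5 (SD, n = 3) in PBS, 319 ± 18.8 (n = 4) at 100 µM and 307 ± 52.3 (n = 5) at 5 mM.

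Among 9 genes of BMP inhibitors 3 rose at the low dose, a share near the 24.6% of all genes, and the median was 0.02. Fst, which encodes the activin and BMP antagonist follistatin, read 156, 181, 118 and 183 at 100 µM, against 42.4, 26.1 and 5.17 in PBS. All low-dose arrays lay above all PBS arrays, and the log2 change was 2.45 ± 0.44 (SE, adjusted p = 0.00112). Tob1, whose product dampens BMP-Smad signalling in bone cells of the mouse, rose 2.45-fold (adjusted p = 2.05e-04).

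The inhibitory Smad gene Smad7 averaged 725 ± 78.3 (SD, n = 4) at the low dose and 516 ± 52.1 (n = 3) in PBS (0.48, adjusted p = 0.0188). This call was lost after scaling to a common median (adjusted p = 0.231) and without PBS replicate 2 (0.0732), PBS replicate 3 (0.0707), 100 µM replicate 2 (0.0533) or 100 µM replicate 3 (0.0502). Smad6, the other inhibitory Smad gene, did not pass (-0.20, adjusted p = 0.562). After 5 mM 2 of 9 rose (median -0.02). Skil, which encodes the Smad corepressor SnoN, read 122, 89.6, 50.6, 99.0 and 121 at 5 mM, against 10.3, 9.08 and 8.34 in PBS (2.41, adjusted p = 1.51e-04), a size that depends on the offset. Tob1 rose 1.57-fold (adjusted p = 0.0268), a call lost with a common median (0.0517), no variance trend (0.0559), the compared groups alone (0.0506) or the replicate block (0.106), and without PBS replicate 1 (0.104), PBS replicate 3 (0.0508), 5 mM replicate 4 (0.0535) or 5 mM replicate 5 (0.0581). Smad7 had a value of -0.37 (adjusted p = 0.085). Between the doses, Fst (-2.40), Smad7 (-0.85) and Tob1 (-0.65) were lower and Skil (2.10) higher at 5 mM.

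Other genes known as BMP targets were split at the low dose. Their list was chosen with earlier results of these data known, so nothing is read from this split. Of 8 tested, 3 rose, 1 fell and 4 missed the threshold (median 0.52). Tbx3, a T-box factor gene active in ES cells, read 596, 510, 571 and 503 at 100 µM, against 185, 158 and 146 in PBS (1.69 ± 0.14, adjusted p = 2.78e-06). The Notch and BMP target Hes1 rose by 1.13 (adjusted p = 3.06e-04) and Prdm1, a transcriptional repressor gene, by 0.96 (adjusted p = 0.0139; 0.0686 without PBS replicate 1). Dusp9, a phosphatase gene that restrains ERK signalling downstream of BMP in mouse ES cells, read 178, 146, 169 and 225 at 100 µM, against 606, 577 and 476 in PBS (-1.58 ± 0.14, adjusted p = 4.27e-06). A dim second probe set of Dusp9, at a mean signal of 31.5, gave 0.53 and did not pass.

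None of these 8 targets passed at the high dose against PBS in limma (0 at an unadjusted p under 0.05), and their median was 0.05. The largest values were 0.30 for Hey1 (adjusted p = 0.473) and 0.19 for Prdm1 (adjusted p = 0.668). For high over low dose 1 rose and 3 fell: Dusp9 by 1.46, and Tbx3 by -1.68, Hes1 by -1.05 and Prdm1 by -0.77, the last call being lost without 100 µM replicate 1 (adjusted p = 0.0561) or 100 µM replicate 3 (0.0681). Dusp9 and Bmp4 thus had their lowest mean at 100 µM, as Id1 did, and Tbx3, Hes1 and Fst their highest, as Id2 and Id4 did. These genes were picked by their changes from lists chosen with earlier results known, and a shared pattern was not tested.

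**Figure D4:**
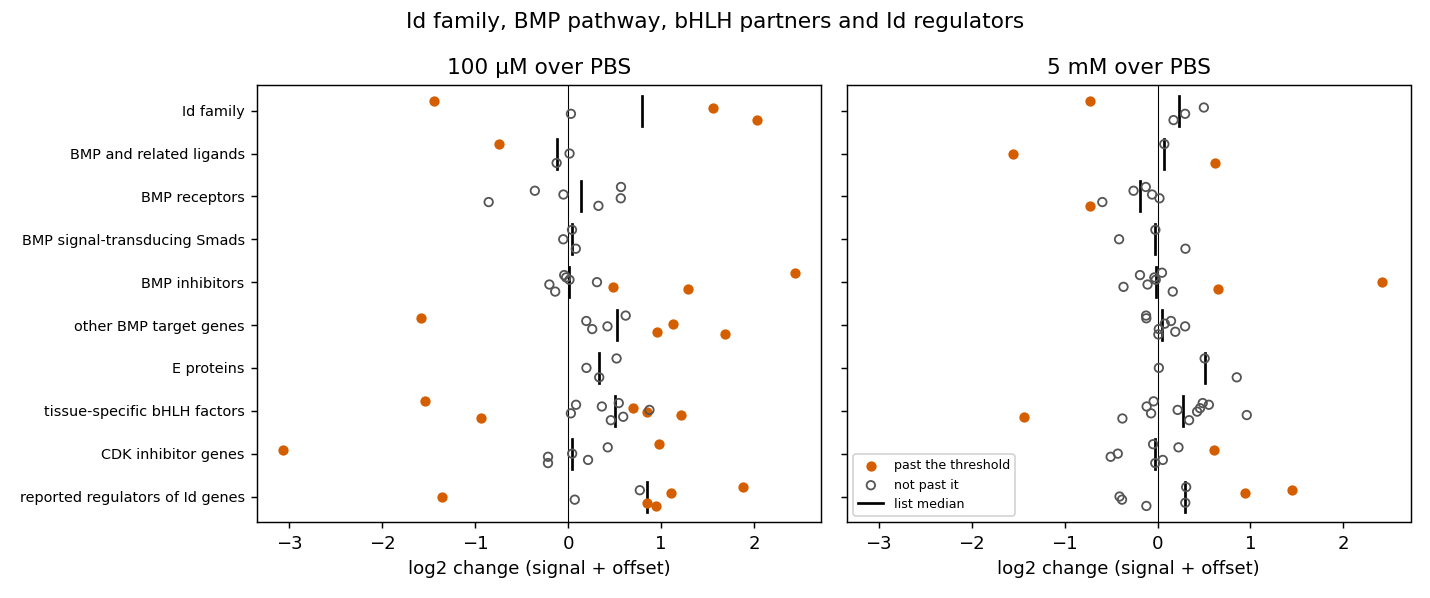
Log2 change (signal + offset) of each tested gene, one row per gene list, for 100 µM over PBS (left) and 5 mM over PBS (right), filled where past the threshold and open where not, with a line at the list median. Changes reach from -3.07 to 2.45 at 100 µM, and the 8 other BMP target genes are all open at 5 mM.

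The partners of the Id proteins were read next. The E protein genes Tcf3, Tcf4 and Tcf12 had no member past the threshold in limma against PBS. Before adjustment, p was under 0.05 for 1 of 3 at 100 µM (median 0.34) and for 2 at 5 mM (median 0.51). Tcf4 averaged 176 ± 50.1 (SD, n = 5) at the high dose and 89.9 ± 9.88 (n = 3) in PBS, without overlap (0.85, adjusted p = 0.0522; 0.0242 to 0.0433 without 100 µM replicate 1, 100 µM replicate 2 or 5 mM replicate 3, and 0.0317 to 0.0487 under 6 other settings). Tcf12 had a value of 0.52 at 100 µM (adjusted p = 0.0913; 0.0131 with array weights, 0.0248 without PBS replicate 1 and 0.0412 without 5 mM replicate 2) and of 0.51 at 5 mM (adjusted p = 0.125; 0.00863 with array weights, 0.0383 without PBS replicate 1 and 0.0275 without 5 mM replicate 2). Tcf3 had values of 0.20 (adjusted p = 0.471) and 0.01 (adjusted p = 0.972).

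Of 29 listed genes of tissue-specific bHLH factors 12 were tested, most of them dim. At the low dose 3 of these rose, 2 fell and 7 did not pass (median 0.50). Of all genes tested, 24.6% were past the threshold there. Ascl2, known from trophoblast and intestinal stem cells, averaged 41.7 ± 21.2 (SD, n = 4) at the low dose and 132 ± 30.8 (n = 3) in PBS (-1.54, adjusted p = 0.00202). Tcf15, a bHLH gene whose product Id proteins hold back in mouse pluripotent cells, read 196, 191, 176 and 155 at 100 µM, against 265, 379 and 435 in PBS (-0.94, adjusted p = 0.00139). The neural genes Nhlh1 (1.22, adjusted p = 0.0166) and Neurod1 (0.85, adjusted p = 0.0160) rose, but the call of Nhlh1 was lost without PBS replicate 1 (0.072) or PBS replicate 3 (0.0743), and that of Neurod1 without PBS replicate 3 (0.0633) and after quantile normalization (0.0565).

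Of the 12 bHLH genes, 1 fell at 5 mM and 11 missed the threshold (median 0.28), beside 12.2% of all genes past it. Scx, the tendon factor gene scleraxis, averaged 36.3 ± 26.6 (SD, n = 5) at the high dose and 105 ± 33.7 (n = 3) in PBS (-1.44, adjusted p = 0.0201; 0.0991 without PBS replicate 3). Ascl2 (2.83-fold) and Tcf15 (1.48-fold) were higher, and Scx lower (-2.03), at the high than at the low dose.

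Genes of cyclin-dependent kinase inhibitors, some of which E proteins can activate, gave 1 higher and 1 lower of 7 at the low dose, a share near the 24.6% of all genes (median 0.04). Cdkn1a averaged 508 ± 123 (SD, n = 4) at the low dose and 254 ± 66.7 (n = 3) in PBS (0.98, adjusted p = 0.00241), and Cdkn1c 42.8 ± 11.6 at the low dose and 428 ± 74.7 in PBS (-3.07, adjusted p = 1.06e-07). After 5 mM 1 of 7 rose, beside 12.2% of all genes past the threshold. It was Cdkn1c (0.61, adjusted p = 0.0401), a call lost with a common median (0.0791), a floor (0.0645), no filter (0.054), no variance trend (0.0632) or the replicate block (0.0624), and without PBS replicate 2 (0.198), PBS replicate 3 (0.0889) or 5 mM replicates 1 (0.0756), 3 (0.0589), 4 (0.0835) or 5 (0.0796).

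Of 7 genes whose products have been reported to act on Id promoters, 4 rose, 1 fell and 2 did not pass at the low dose (median 0.85). Of all genes tested, 24.6% were past the threshold there. This list was chosen with earlier results of these data known, so nothing is read from its counts. Atf3, a stress factor that represses ID1 in human epithelial cells, read 320, 318, 292 and 279 at 100 µM, against 131, 43.0 and 70.9 in PBS (1.88, adjusted p = 9.30e-05). Egr1, an immediate-early factor, rose by 1.11 (adjusted p = 5.77e-04), Yy1 by 0.94 (adjusted p = 3.51e-04), and Sp1 by 0.85 (adjusted p = 0.00532). Myc, an activator of ID2 in human tumour cells together with MYCN, averaged 26.0 ± 4.25 (SD, n = 4) at the low dose and 82.0 ± 4.71 (n = 3) in PBS (-1.36, adjusted p = 6.25e-04), while Mycn had a value of 0.07 (adjusted p = 0.842).

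After 5 mM 2 of these 7 rose, beside 12.2% of all genes past the threshold. They were Creb1 (1.44, adjusted p = 0.00481) and Egr1 (0.94, adjusted p = 0.0027), and the list median was 0.30. On the PBS arrays Creb1 read 9.97, 33.6 and 8.29, so the offset sets part of its change. That change ranged between 0.81 and 1.96 over the other settings. A second probe set of Creb1 was past the threshold at 5 mM as well (1.31). The change of Atf3 against PBS was 0.31 there (adjusted p = 0.43), which passed without PBS replicate 1 (0.033). A dimmer probe set of Atf3 gave -0.38 at 5 mM against PBS and did not pass. For high over low dose, where 29% of all genes were past the threshold, Atf3 (-1.57), Yy1 (-1.06) and Sp1 (-0.55) fell and Myc rose by 0.95. A dimmer probe set of Yy1 did not pass there (-0.43). The second probe set of Creb1 was past the threshold there (1.68), while the one that stands for the gene was not (0.67). The call of Sp1 was lost with a common median (adjusted p = 0.0937), with the replicate block (0.0786), and without 100 µM replicate 3 (0.0898) or 5 mM replicate 3 (0.0605). Egr1 did not differ past the threshold between the doses (-0.18, adjusted p = 0.456).

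The genes whose pattern was most like that of each Id gene were ranked by Pearson's r of log2 values over the 12 arrays, among 6413 other genes. These coefficients are descriptions: the arrays form 3 groups, so a shared difference between groups gives a high r by itself. Beside each, r of the deviations from the group means is given, a measure added after the data were seen. The genes were picked by r over the same arrays, which includes these deviations, so this measure is not independent of the ranking. Under the deposited scaling, the genes most like Id1 were Ndufa6, a subunit gene of respiratory complex I (r = 0.954, within groups 0.747), AU020206 (0.947, within groups 0.597) and Noct, which encodes nocturnin (0.943, within groups 0.658). Noct averaged 1245 ± 170 (SD, n = 3) in PBS, 618 ± 103 (n = 4) at 100 µM and 873 ± 128 (n = 5) at 5 mM, the same order of groups as Id1. After quantile normalization Ndufa6 ranked 4, AU020206 3 and Noct 8 in likeness to Id1.

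The genes most like Id2 were Chtop, which takes part in messenger RNA export (r = 0.970, within groups 0.908), the splicing factor gene Sfpq (0.951, within groups 0.852) and Zfp281, a zinc-finger factor gene of pluripotent cells (0.948, within groups 0.758). Chtop averaged 625 ± 93.7 (SD, n = 3) in PBS, 946 ± 57.0 (n = 4) at 100 µM and 677 ± 87.5 (n = 5) at 5 mM. After quantile normalization Chtop ranked 1, Sfpq 4 and Zfp281 5. Most like Id4 were Matk, a kinase gene of the Csk family (0.975, within groups 0.721), Fbxw7, the substrate receptor gene of a ubiquitin ligase (0.963, within groups 0.470), and the stress-inducible zinc-finger gene Zfand2a (0.956, within groups 0.715). Fbxw7 averaged 73.9 ± 14.1 in PBS, 252 ± 38.9 at 100 µM and 86.7 ± 12.4 at 5 mM, and Matk 21.8 ± 2.44, 75.4 ± 13.8 and 22.3 ± 6.20. After quantile normalization Matk ranked 3, Fbxw7 9 and Zfand2a 19. For Id3, whose groups differed little, the highest coefficients were lower: Map4k4, a kinase gene (0.884, within groups 0.909), Zc3h15 (0.877, within groups 0.884) and Naa15, a subunit gene of an N-terminal acetyltransferase (0.866, within groups 0.840), which ranked 5, 9 and 1 in that order after quantile normalization.

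**Figure D5:**
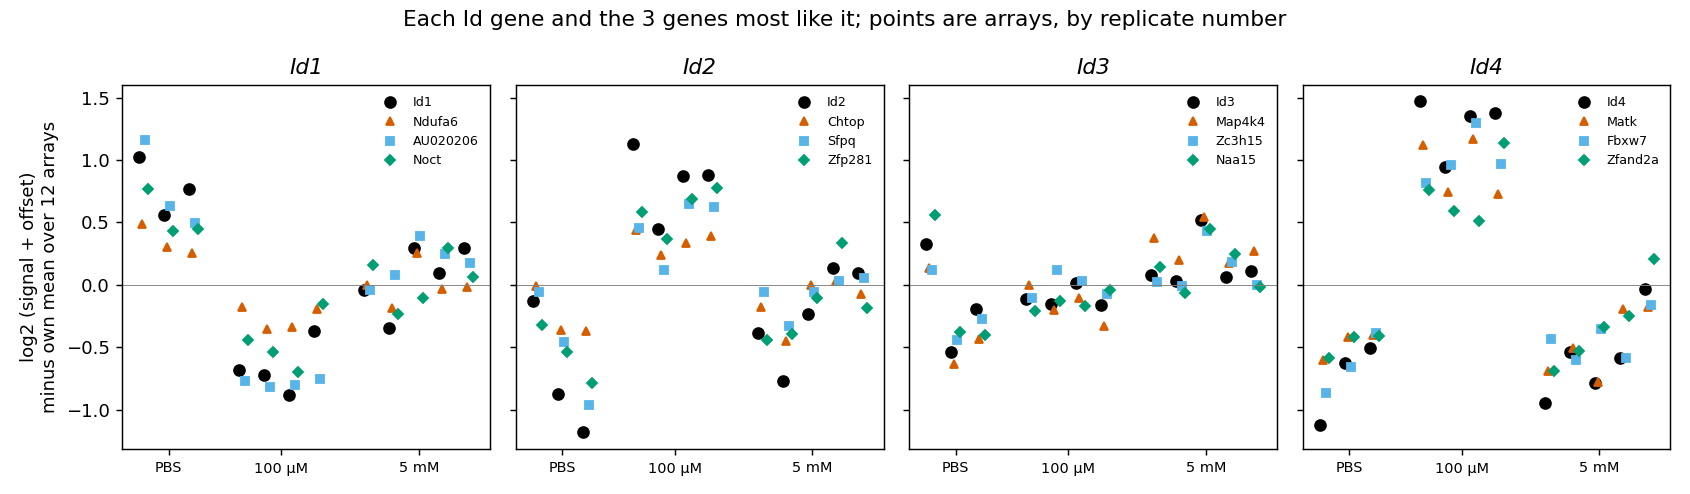
Log2 (signal + offset) minus the gene's own mean over the 12 arrays, for each Id gene (black circles) and the 3 genes most like it, on PBS (n = 3), 100 µM (n = 4) and 5 mM (n = 5) arrays. The Id4 panel shows all 4 genes high at 100 µM and low in the other groups, and the Id1 panel shows the reverse for 100 µM against PBS.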

How the data were processed

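The deposited table gives 1 intensity per probe set and array on a linear scale, made by the authors with MAS5 per the submitters' processing notes. For MAS5, a version or scaling target is not given in the sources used here. Trimmed means (2% at each end) differed by 0.0195% between arrays, so the deposited scaling was kept. The log2 of each intensity was taken after adding an offset of 10.1, the 20th percentile of all deposited values. Of 12488 probe sets, 66 controls were left out, and the 8695 with a mean log2 value above the 30th percentile were tested.

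Genes were named from the platform annotation (10855 probe sets with 1 symbol, 396 with several, 1193 unlisted), with 10839 updated by Entrez number through RefSeq records of GRCm38.p6. The group means of all 12 arrays were fitted by limma 3.58.1 under R 4.3.3 (eBayes with a variance trend). Tests were two-sided with Benjamini-Hochberg adjustment over all probe sets tested and a threshold of 0.05. The probe set with the highest mean stood for each of 6414 genes. The fit was tested on simulated data.

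Per list and comparison, up to 4 genes past the threshold with the largest changes were named, or the 2 largest where none passed, besides Bmp4, Smad6, Smad7, Egr1, Atf3, Tcf3, Dab2, Gata6, Pou5f1, Sox2 and Nanog, and the 3 genes most like each Id gene. Markers beyond these were summarised, and other named genes were chosen after their values were seen. The members and lists were chosen with earlier results of these data known. The alternatives concerned scaling (quantile normalization or a common median), the offset (a floor, or an offset 4 times as large), the filter (none, or the 50th percentile), the model (without the variance trend, with array weights, with the compared groups alone, or with replicate number as a block) and each array in turn being left out. Arrays have no read depth; their number limits the precision.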

Additional observations from a re-analysis of the deposited data

Results flagged for a closer look

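In 8 of 112 groups of 4 or 5 arrays 1 array stood apart from the others by Dixon's criterion, which chance alone reaches in about 1 of 20 groups. Among the Id genes this held for Id3 at 5 mM, where replicate 3 read 225 and the next array 167. In the pathway lists, Bmp4 read 641 on 5 mM replicate 2 with the next array at 492, Tcf12 read 117 on 5 mM replicate 2 with the next at 201, Tcf3 read 85.1 on 5 mM replicate 4 with the next at 136, and Sp1 read 1196 on 100 µM replicate 3 with the next at 712. Among the markers, Col4a1 read 197 on 5 mM replicate 4 with the next at 139, Cubn 66.8 on 5 mM replicate 5 with the next at 36.1, and Klf4 3737 on 100 µM replicate 2 with the next at 3306.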

How the results depend on the processing

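The members of the Id family past the threshold were the same under all alternatives, except at the high dose against PBS, where Id2 joined Id1 (2 in place of 1) with array weights and without PBS replicate 1. With 4 times the offset the change of Id4 was 1.65 at the low dose against PBS and -1.53 for high over low dose. At the high dose against PBS, 1018 probe sets passed, 1655 with array weights, and 490 to 1012 when arrays were left out (490 without PBS replicate 2, 599 without PBS replicate 3). Array weights gave 2 E protein and 2 bHLH genes there, and 1 receptor and 1 E protein gene at the low dose. At the high dose against PBS, 1 E protein gene passed under quantile normalization, a common median, 4 times the offset, the 50th percentile filter and the compared groups alone. Only 1 ligand gene passed with a common median or the 50th percentile filter, 1 inhibitor gene with these, without the variance trend or with the compared groups alone, and 1 regulator gene with the 50th percentile filter. No (0) cyclin-dependent kinase inhibitor gene passed with a common median, a floor, no filter or no variance trend. At the low dose, 3 bHLH genes passed under quantile normalization or the 50th percentile filter, and 1 receptor gene without the variance trend. For high over low dose, 1 E protein gene passed with a common median, and 2 inhibitor genes with the 50th percentile filter. Leaving out arrays at the high dose gave 1 to 2 Id, ligand and inhibitor genes, 0 to 1 receptor, E protein and kinase inhibitor genes and 0 to 2 bHLH genes, and at the low dose 0 to 1 receptor and E protein genes and 3 to 6 bHLH genes. Under quantile normalization the pluripotency marker Dppa5a turned to -0.45 at the high and -0.34 at the low dose, from values above 0. The cause of these changes was not tested.

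The replicate numbers did not pair the arrays: deviations from group means correlated between -0.178 and 0.148 for the same number (10 pairs) and between -0.162 and 0.177 for different numbers (37 pairs), and 4 of 12 arrays correlated best with their own number. With the replicate block, 597 probe sets passed at the high dose against PBS, with 1 ligand, 1 inhibitor and 0 kinase inhibitor genes. Probe sets near background, including Bmp6, Skil and Creb1, have changes set in part by the offset.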
